A study of Talpa occidentalis with 6 samples.

Results

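CYP17A1, CYB5A and AKR1C1 are 3 of the 18052 gene names in the gene annotation deposited for the Iberian mole, Talpa occidentalis. They were chosen because each name carries more than 1 gene model and because each is tied to androgen synthesis. A gene model is a predicted gene, given as a set of exons on a scaffold of the genome assembly talOcc3, and a further model of a name is marked by a suffix such as CYP17A1_copy2. Together the 3 names held 7 models, of 23336 in the annotation. More than 1 model was found for 2362 names, or 13.1% of all names, so carrying a second model is common here. That count is what chose the 3 genes and is not a result about them.

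The series itself profiled open chromatin by ATAC-seq in 6 samples of wild-type moles at postnatal day 7. The samples were 2 of the ovarian part of the ovotestis, 2 of its testicular part and 2 of the testis. Ovotestes are the gonads of females in this species and hold ovarian and testicular tissue. The chromatin files lie on another assembly, talOcc4, and 0 of their 4454 scaffold names occur among the 2074 scaffolds of the annotation. The models are therefore described as annotated, without values per sample, and how much RNA or open chromatin each copy has was not analysed here. No deposited file used here holds the sequence of talOcc3, so copies were compared by lengths, positions, reading phase and the part of a reference transcript each was aligned to.

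Androgens are made from cholesterol by a short chain of enzymes in the Leydig cells of the testis and in related cells of the ovary and adrenal gland. CYP17A1, a cytochrome P450 of the endoplasmic reticulum, carries out 2 reactions in turn, the 17-alpha-hydroxylation of progestogens and the 17,20-lyase cleavage that yields androgen precursors. Cytochrome b5, the product of CYB5A, is a small heme protein that favours the lyase reaction. AKR1C1 belongs to a family of aldo-keto reductases that reduce steroids. Its own best known reaction is the inactivation of progesterone, while its relative AKR1C3 reduces androstenedione to testosterone. The term androgen synthesis fits CYP17A1 and CYB5A more closely than AKR1C1, and AKR1C3 had no model in the annotation.

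CYP17A1 had 3 models in a row on scaffold 11, of which 2 had the complete set of 8 exons and 1 began partway through the gene. All 3 lay on the minus strand, head to tail, and no other gene model lay between them. CYP17A1_copy2 occupied positions 45100228 to 45105611, CYP17A1_copy3 positions 45117841 to 45121591 and CYP17A1 positions 45139044 to 45144553. The array spanned 44.3 kb, and coding sequence made up 9.2% of it. The study's paper reports a triplication of CYP17A1 in the mole. Set against that, the annotation, deposited by the same study, has 3 models of this name on talOcc3, of unequal structure. Whether each model corresponds to 1 of the paper's copies was not tested. How the paper describes the structure of each copy was not available here and was not compared.

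**Figure D1:**
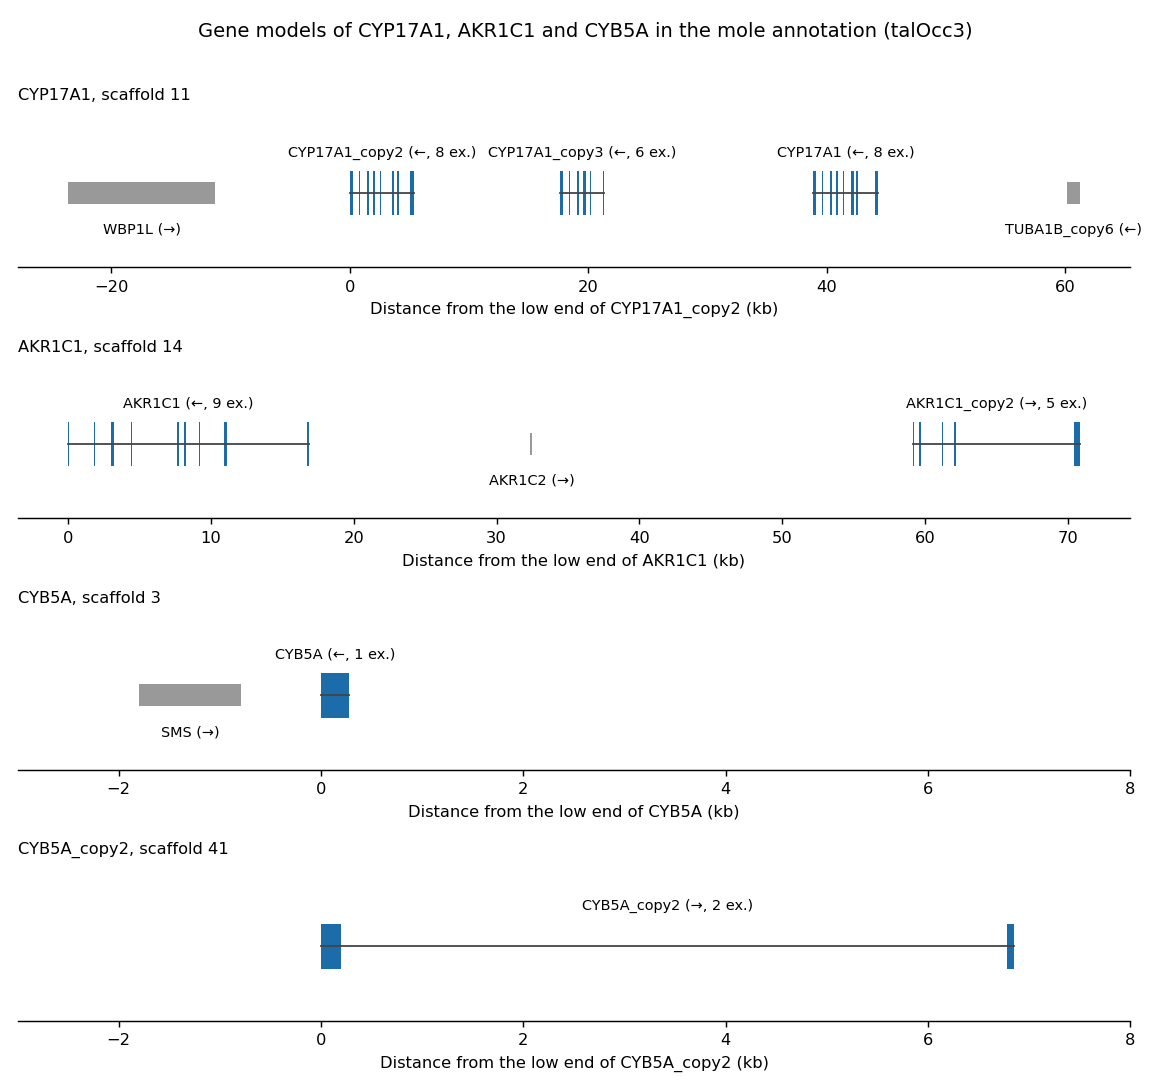
Gene models of CYP17A1, AKR1C1 and CYB5A drawn to scale along their scaffolds, with the distance in kb on the horizontal axis. Blue boxes are exons, grey boxes are neighbouring models drawn as 1 block, and arrows give the strand. The 3 CYP17A1 models point the same way, the AKR1C1 models point away from each other and the CYB5A models lie on different scaffolds.

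The 8 exons of CYP17A1 and of CYP17A1_copy2 had the same coding lengths, exon by exon. From the 5′ end these were 297, 139, 230, 87, 216, 170, 104 and 290 bp, or 1533 bp in all, and the reading phase at the start of each exon was the same in both models. The coding length was a multiple of 3 in each of the 7 models described here, as in 87.8% of all models. Exon rows and CDS rows coincided in all 23336 models, so the annotation holds no untranslated regions and every exon length is a coding length.

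CYP17A1_copy3 had 6 exons of 144, 87, 216, 170, 104 and 290 bp, or 1011 bp. Its last 5 exons were identical in length to exons 4 to 8 of the other models, which together hold 867 bp. No exon corresponded to exon 1, of 297 bp. The first exon of CYP17A1_copy3, of 144 bp, was placed differently by length and by alignment. By length within 10% it paired with exon 2, of 139 bp. By the deposited alignment it fell in exon 3, of 230 bp: its first aligned base corresponded to base 535 of the CYP17A1 coding sequence, which is base 99 of exon 3. Exon 2 ends at base 436 of that coding sequence, so it lies wholly before the aligned part. Exon 3 borders exon 4 directly, so the placement by alignment leaves no exon skipped between them.

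On that placement CYP17A1_copy3 lacked exons 1 and 2 and the first 86 bp of exon 3, and its coding sequence was 522 bp shorter than that of the full models, at 65.9% of their length. The deposited alignment started 525 bases later on the reference transcript than those of the full models. That is 3 bases more than the difference in length. The same shift appeared at its end, where base 287 of the last exon of CYP17A1_copy3 fell on base 290 of exon 8. In microsomal P450 enzymes the N-terminus, encoded by the first exon, holds the membrane anchor, and the heme-binding cysteine lies near the C-terminus. The model of CYP17A1_copy3 thus covers the C-terminal side of the gene. Of all models with a suffix, 54.6% had fewer exons than the model of the same name without one, 13.3% had more, and 5.61% had the same number with several exons in both models. A copy with fewer exons, such as CYP17A1_copy3, is thus common in this annotation.

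**Figure D2:**
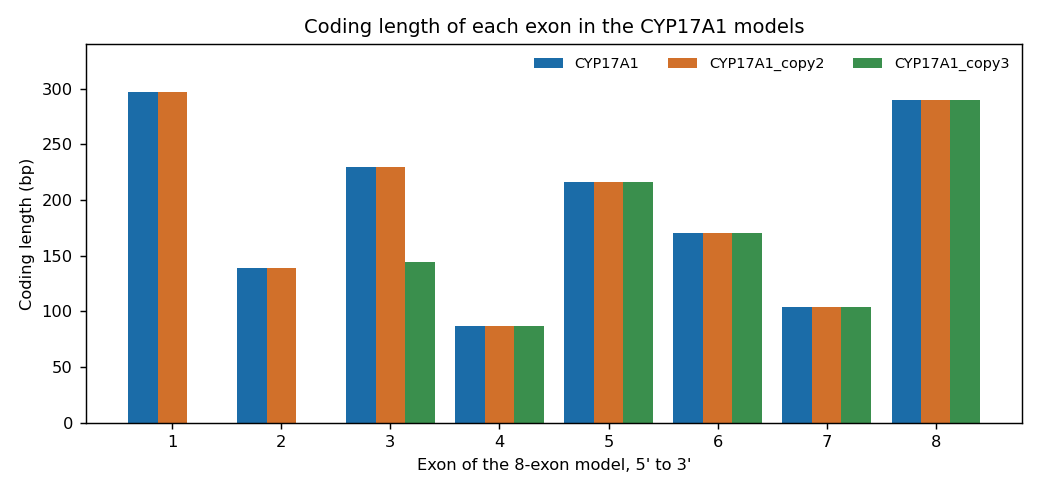
Coding length in bp of each exon, from exon 1 at the 5′ end to exon 8, in the 3 CYP17A1 models, with the first exon of CYP17A1_copy3 placed at exon 3 by its alignment. Bars of CYP17A1 and CYP17A1_copy2 are equal at every exon, and CYP17A1_copy3 has no bar at exons 1 and 2, a shorter one at exon 3 (144 against 230 bp) and equal ones from exon 4 on.

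The introns differed between copies where the exons did not. In introns 4 to 7, which all 3 models share between matched exons, lengths were close. Intron 4 measured 364 bp in CYP17A1, 354 bp in CYP17A1_copy2 and 353 bp in CYP17A1_copy3. Intron 5 measured 318, 315 and 297 bp in the same order. Intron 6 was 569 bp in both full models and 601 bp in CYP17A1_copy3, and intron 7 was 475, 489 and 492 bp. Summed over these introns, lengths differed by 27 bp between the full models, by 54 bp between CYP17A1_copy2 and CYP17A1_copy3, and by 81 bp between CYP17A1_copy3 and CYP17A1.

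The introns nearer the 5′ end differed more. Intron 1 was 1435 bp in CYP17A1 and 990 bp in CYP17A1_copy2, whereas intron 2 was 198 and 204 bp. Intron 3 was 618 bp in CYP17A1, 930 bp in CYP17A1_copy2 and, on the placement by alignment, 997 bp in CYP17A1_copy3. With intron 3 included, the closest pair was no longer the full models, which then differed by 339 bp, but CYP17A1_copy2 and CYP17A1_copy3, which differed by 121 bp. CYP17A1_copy3 and CYP17A1 differed by 460 bp. Which copies are most alike by intron length therefore depends on 1 intron.

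**Figure D3:**
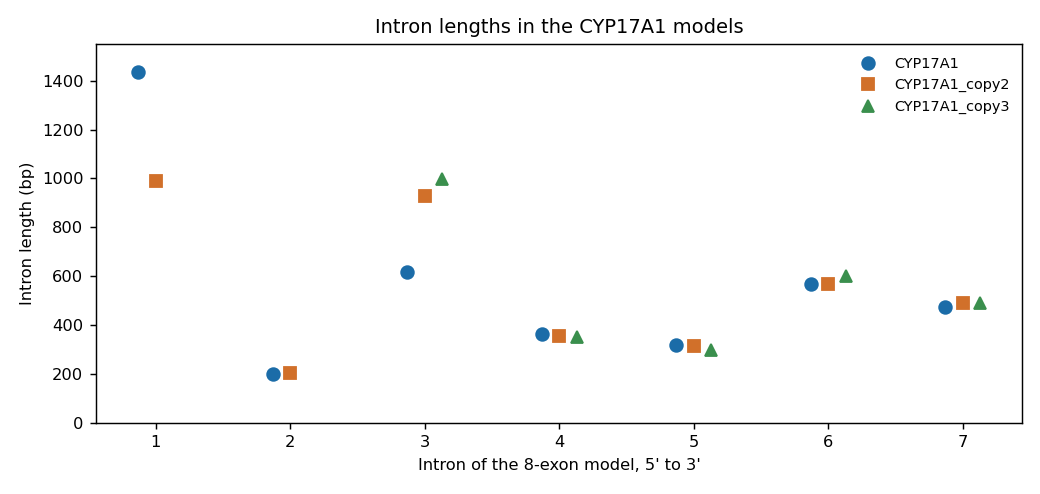
Intron length in bp by intron number of the 8-exon model, with 1 point per CYP17A1 model. The points of introns 4 to 7 lie close together, while intron 1 (1435 and 990 bp) and intron 3 (618, 930 and 997 bp) are spread.

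The spacing of the copies was uneven. Measured between the 3′ ends of the models, CYP17A1_copy3 lay 17613 bp from CYP17A1_copy2, and CYP17A1 lay 21203 bp from CYP17A1_copy3. Taken exon by exon over exons 4 to 8, the first distance ranged from 17613 to 17648 bp and the second from 21154 to 21203 bp. The stretch free of gene models was 12229 bp between CYP17A1_copy2 and CYP17A1_copy3. Between CYP17A1_copy3 and CYP17A1, on the side where the missing exons would lie, it was 17452 bp. In the full models exons 1 and 2 reach 1630 bp (CYP17A1_copy2) and 2069 bp (CYP17A1) beyond exon 3. Whether sequence resembling those exons lies in the 17452 bp, or whether the assembly has a gap there, was not tested.

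The deposited alignment scores ordered the copies. CYP17A1 scored 1476, CYP17A1_copy2 scored 1366, or 92.5% of it, and CYP17A1_copy3 scored 904. The files do not define the score. CYP17A1 and CYP17A1_copy2 were aligned to the same 1524 bases of 1 reference transcript, from base 173 to base 1696, and CYP17A1_copy3 to its bases 698 to 1696. Per aligned base the score was 0.969 for CYP17A1, 0.896 for CYP17A1_copy2 and 0.905 for CYP17A1_copy3. The value for CYP17A1_copy3 comes from 999 bases at the 3′ side only. Scores of the full models over those bases alone are not given, so the values per base do not compare the copies over the same part. Names without a suffix went to the highest score in 2308 of the 2362 names with several models. A missing suffix thus mostly marks the highest score and does not say which copy is ancestral. Whether the numbers in the suffixes follow the score was not tested.

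The array was flanked by WBP1L on the side of CYP17A1_copy2, 11.3 kb away, and by a 2-exon model named TUBA1B_copy6 on the side of CYP17A1, 15.8 kb away, which overlaps BORCS7 by 288 bp. In human, CYP17A1 also lies between WBP1L and BORCS7. In NCBI's RefSeq gene table for the later assembly MPIMG_talOcc4v2.1, where 77.5% of the annotation's names occur as symbols, none of the 3 genes has a symbol. There, 4 entries without a symbol lie between WBP1L and BORCS7. In order from WBP1L they are a protein-coding gene, 2 pseudogenes and a protein-coding gene. The table does not say which of them correspond to the models described here.

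Models of 1 name that lie in a row can be copies of a gene or pieces of a single gene. The aligned parts of the reference transcript were compared with this in mind. Complete copies would cover the same part of the transcript, and pieces would cover successive parts. Partial copies could also cover successive parts, so the overlap describes the models and does not decide between these. Which of them holds for any name was not tested. All models on 1 scaffold and 1 strand, with neighbours at most 100 kb apart, were found for 930 names, or 39.4% of those with several models (Wilson 95% interval 37.4% to 41.4%, for counting error only). With single-exon models left out the share was 59.9%. In 482 of the 930 names all models were aligned to 1 transcript. The lowest overlap between any pair of models reached 50% of the shorter aligned part in 29.0% of the 482 names, and in 63.9% at least 1 pair did not overlap at all. Where all models of a name had several exons, as in CYP17A1, it reached 50% in 67 of 379 names, or 17.7%. Few names lay between these extremes, with 6 of the 482 from 5% to 85%. In CYP17A1 each of the 3 pairs overlapped over 100% of the shorter part, which was also the lowest value in 20.7% of the 482 names.

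**Figure D4:**
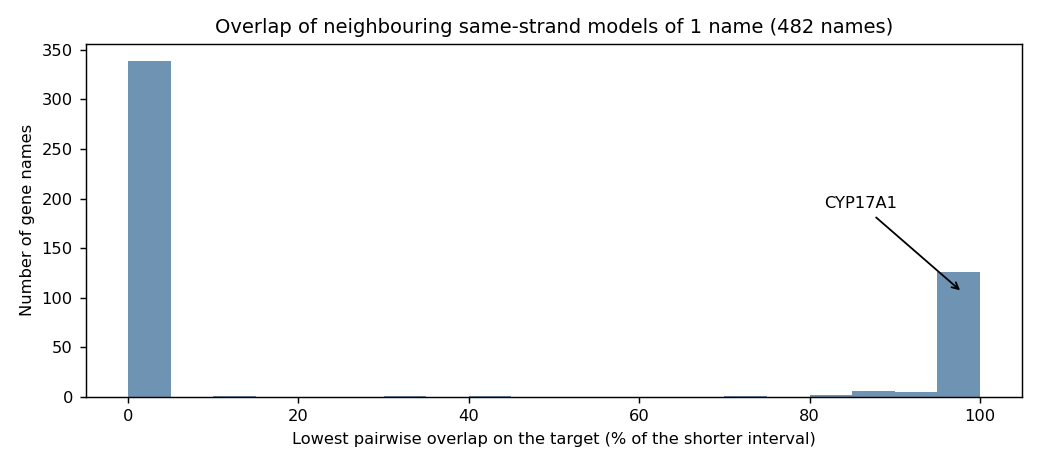
Number of gene names by the lowest overlap, in percent of the shorter aligned part, between any pair of their models, for the 482 names with neighbouring models on 1 strand aligned to 1 transcript. Most names lie near 0 or near 100%, and CYP17A1 lies at 100%.

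Among names with exactly 3 models, each of several exons, 36 met these conditions, and in 4 of them, or 11.1%, the lowest overlap reached 50%. They were CYP17A1, FMO9P, KRT38 and PARP14, named here after their values were seen. In all, 80 names, CYP17A1 included, had exactly 3 models of several exons on 1 scaffold and strand with no other gene between them. The 5 closest to CYP17A1 in span were RAPGEF1 (45.3 kb), TDRD9 (42.9 kb), WWC3, CFAP65 (39.6 kb) and EP400 (49.8 kb). All 3 pairs of models could be compared in RAPGEF1, WWC3 and EP400, and 1 of the 3 pairs in TDRD9 and CFAP65, whose other pairs were aligned to different transcripts. The highest overlap of any comparable pair was 0.469%, in RAPGEF1. The 3 models of WWC3, for instance, were aligned to bases 268 to 1803, 1831 to 3054 and 3145 to 3477 of their transcript, 1 part after another. In RAPGEF1, WWC3 and EP400, arrays of like span and number of models thus differed from CYP17A1 in what their models covered.

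A pair of models with the same coding length at every exon, over at least 2 exons, was found in 19 names, or 0.804% of those with several models, and in 5, or 0.538%, of the 930 names with neighbouring models on 1 strand. In 11 of the 19 the pair had only 2 exons. Pairs of 8 exons or more occurred in CYP17A1 and in CYP4A11, another cytochrome P450 gene, whose pair had 12 exons. The limit of 8 is the exon number of CYP17A1 itself, so that gene meets it by definition. Just below the limit, pairs of 7 and of 6 exons occurred in other names. Because CYP17A1 was chosen with earlier results on these models known, this is a description and not a test.

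**Figure D5:**
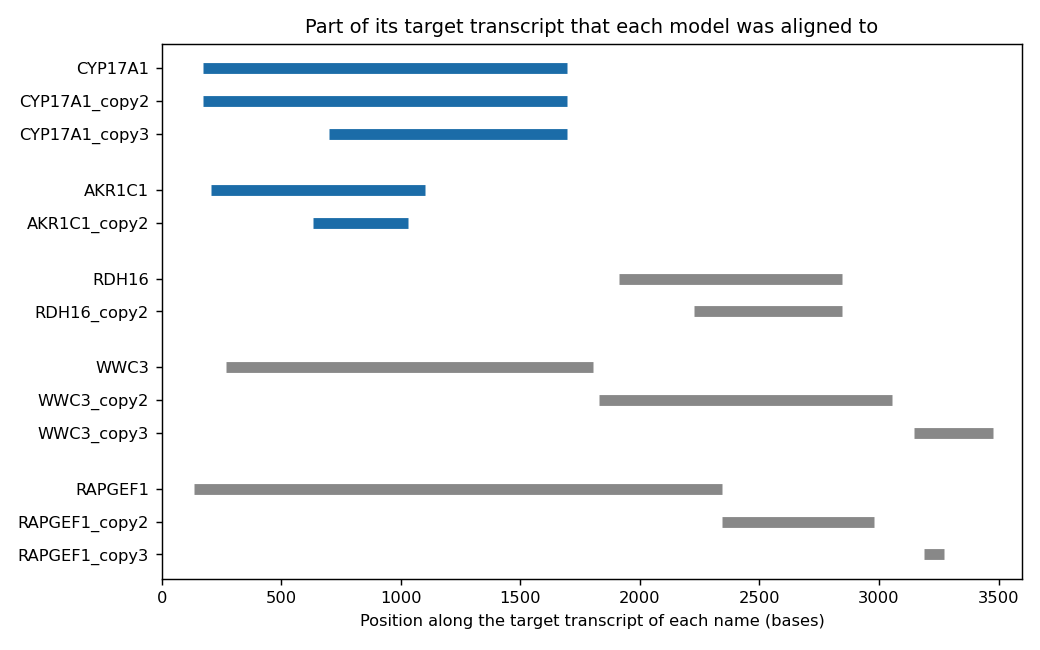
Part of the reference transcript, in bases from its start, to which each model was aligned, for CYP17A1 and AKR1C1 in blue and for RDH16, WWC3 and RAPGEF1 in grey. The bars of CYP17A1, AKR1C1 and RDH16 lie over one another, while those of WWC3 and RAPGEF1 follow one another.

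AKR1C1 had 2 models on scaffold 14, of unlike structure and on opposite strands. AKR1C1 lay on the minus strand at 32858423 to 32875263, with 9 exons, and AKR1C1_copy2 on the plus strand at 32917606 to 32929247, with 5 exons. Their 5′ ends faced each other across 42.3 kb, and the only model between them was AKR1C2, a single exon of 138 bp on the plus strand at 32890790 to 32890927. Of the 1018 names whose models lie within 100 kb of each other on 1 scaffold, 88 held both strands, or 8.64%. In 92.9% of the 56 comparable names of that kind the models overlapped on the transcript by at least 50%, as AKR1C1 did, so this arrangement is the usual one for them.

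From the 5′ end the exons of AKR1C1 measured 87, 168, 117, 78, 123, 110, 166, 83 and 43 bp, or 975 bp. Those of AKR1C1_copy2 measured 44, 181, 110, 166 and 381 bp, or 882 bp. The exons of 110 and 166 bp, which are exons 6 and 7 of AKR1C1 and exons 3 and 4 of AKR1C1_copy2, agreed in length and in reading phase and lay next to each other in both models. The intron between them was 1168 bp in AKR1C1 and 741 bp in AKR1C1_copy2. Exons 2 of the models, of 168 and 181 bp, were within 10% of each other in length and differed in phase. Exons were paired one to one and in order from the 5′ end, and under that rule the other 6 exons of AKR1C1 and the exons of 44 and 381 bp of AKR1C1_copy2 had no counterpart. Out of order, the first exon of AKR1C1_copy2, of 44 bp, is close in length to the last of AKR1C1, of 43 bp.

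The deposited alignment covered less than the whole of AKR1C1_copy2. It took in 395 of 882 coding bases, or 44.8%, from base 63 of exon 2 to the end of exon 4, against 92.2% of AKR1C1 and a median of 96.6% over all models. The first exon and the fifth, of 381 bp, lay outside it. On the transcript it ran from base 635 to base 1029, inside the part covered by AKR1C1 (205 to 1102). The alignment of AKR1C1 took in 899 coding bases over 898 transcript bases, so it was not free of gaps. Placed as if without gaps, the aligned part of AKR1C1_copy2 corresponded to exons 5 to 8 of AKR1C1. This placement does not pair the exons of 168 and 181 bp, since the aligned part of the latter starts at base 33 of exon 5 of AKR1C1. It also ends at base 28 of exon 8, whereas the pairing by length ends with exon 7, so the placements differ by 28 bases. The score of AKR1C1_copy2 was 310, or 41.6% of the 746 of AKR1C1. AKR1C genes resemble each other closely, so which member of the family a model represents is uncertain.

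The models of AKR1C1 lay between UCN3, 55.7 kb from AKR1C1, and a single-exon MCTS1 model, 4.95 kb from AKR1C1_copy2. The RefSeq table lists 8 entries without a symbol between UCN3 and KLF6, the next symbol on that side, of which 3 are protein-coding and 2 are pseudogenes.

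CYB5A had 2 models that shared neither scaffold, exon structure nor reference transcript. The model named CYB5A lay on scaffold 3 at 54575321 to 54575602 on the minus strand, as 1 exon of 282 bp without an intron. CYB5A_copy2 lay on scaffold 41 at 2224971 to 2231823 on the plus strand, as exons of 203 and 76 bp with an intron of 6574 bp between them, or 279 bp of coding sequence. No exon of one matched an exon of the other within 10% or 20% in length. Models on more than 1 scaffold occurred in 52.4% of the names with several models, and single-exon models made up 24.7% of all models. The coding lengths of the CYB5A models differed by 3 bp, but the models cannot be set side by side exon by exon.

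The surroundings of the CYB5A models also differed. CYB5A_copy2 lay between C18orf63, 26.3 kb away, and TIMM21, 27.1 kb away, as the gene does in human. CYB5A lay 792 bp from a single-exon model of SMS, the spermine synthase gene, a name with 5 models, and 50.6 kb from SIL1. In the RefSeq table the only entry between MATR3 and SIL1, the genes on either side of the SMS and CYB5A models, is a small nucleolar RNA. The annotation has CYB5A_copy2 and TIMM21 between C18orf63 and FBXO15. The RefSeq table has a protein-coding gene and a long non-coding RNA between CUNH18orf63 and FBXO15, both without a symbol, and which of the models the former matches is not stated.

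The name without a suffix followed the total score, which was 225 for CYB5A and 183 for CYB5A_copy2. Per aligned base the order was the reverse, 0.804 for CYB5A and 1.29 for CYB5A_copy2, but these models were aligned to different transcripts. The alignment took in 280 of the 282 coding bases of CYB5A but only 142 of the 279 of CYB5A_copy2, or 50.9%, all of them in its first exon. An aligned share this low or lower was found in 7.90% of the models with an alignment. Without single-exon models CYB5A has 1 model and would not have been chosen.

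The 3 genes were set beside 56 genes of steroid synthesis, transport and inactivation, of which 49 were annotated. More than 1 model was found for 8 of the 49, or 16.3%, near the 13.1% of all names, and 3 of the 8 are the genes described here. Without them it was 5 of 46, or 10.9%. The other 41 had 1 model each, among them STAR, which delivers cholesterol to mitochondria, CYP11A1, which cleaves its side chain, HSD3B1, and HSD17B3, the testicular enzyme that completes testosterone. Models of at least 2 exons occurred more than once in 4 of the 49, or 8.16%, against 7.84% of all names. The genes without a model were HSD3B2, HSD17B6, AKR1C3, AKR1C4, CYP11B1, CYP11B2 and SULT2A1, and none of these 7 has a symbol in the RefSeq table. A missing symbol does not show that a gene is absent, since annotated genes such as CYP11A1 and HSD3B1 have none there either.

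The other 5 steroid genes with a second model fell into unlike arrangements. CYB5B, the cytochrome b5 of the mitochondrial outer membrane, had a 5-exon model on scaffold 26 and a single-exon model on scaffold 14, both aligned to the same 438 bases. HSD17B12 had 11 exons on scaffold 18 and a single exon of 927 bp on scaffold 16. HSD17B10 had 7 exons on scaffold 50 and a single exon of 377 bp on scaffold 44. In these 3 names, as in CYB5A, a single-exon model lay on another scaffold than a model with introns, but in each of the 3 it was the model with introns that scored higher and bore no suffix.

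RDH16 and HSD11B1 each had 2 models of several exons on 1 scaffold and strand. RDH16, a short-chain dehydrogenase, had models of 5 and 4 exons 6562 bp apart, and their aligned parts overlapped over 99.8% of the shorter. HSD11B1, which regenerates active glucocorticoid, had models of 5 and 4 exons 14701 bp apart that were aligned to different transcripts, to bases 67 to 678 of one and 673 to 963 of the other. Of the 49 steroid genes, CYP17A1 alone had more than 2 models, as did 4.01% of all names.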

How the data were processed

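The annotation is a deposited table of gene, mRNA, exon and CDS rows with positions on talOcc3 and source tags EVM, exonerate and ALN. The mRNA rows carry a score deposited by the authors with the aligned part of a reference transcript. Aligner, versions and the definition of the score are not given in the sources used here. The 6 ATAC-seq samples entered no comparison, and no depth applies.

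Models were joined by gene ID without the _copy suffix. Where an ID occurred more than once, models were told apart by their mRNA ID. Exons were read from the 5′ end and paired in order by CDS length within 10%. Overlap is the shared part of 2 aligned intervals on 1 transcript, in percent of the shorter, and was added after the data were seen. Bases were placed on the CYP17A1 and AKR1C1 models assuming alignments without gaps. Positions are 1-based. Python 3.11.15 and SciPy 1.17.1 were used, and the procedure was tested on simulated data. The simulated models all lay on the plus strand and lost whole exons only. Models on the minus strand, partial exons and exons of unequal length were therefore not covered by that trial. The members and lists were chosen with earlier results of these data known. Named were the members, their neighbours, steroid genes with several models or none, and the 5 names nearest CYP17A1 in span. FMO9P, KRT38, PARP14 and CYP4A11, the steroid genes with 1 model, and the bordering RefSeq symbols were named outside this rule, after their values were seen. No test between samples was made.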

Additional observations from a re-analysis of the deposited data

How the results depend on the processing

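Of 51 values recomputed under an alternative, 39 stayed within the limits set and 12 moved. Coding lengths and spacing were the same from exon or CDS rows, and with 1 transcript per gene a union of transcripts could change nothing. Without single-exon models CYB5A had 1 model, and 4 steroid genes had more than 1. Without the 3 genes described, 5 did. Pairing exons by identical length, within 20% or by phase changed no count of matched exons by more than 1. For CYB5A the phase could not bear on the pairing, since its rows give none and 0 exons matched in length. With introns numbered from the 5′ end of each model, the summed difference over introns 4 and 5 was 424 bp between CYP17A1_copy2 and CYP17A1_copy3 and 411 bp between CYP17A1_copy3 and CYP17A1, because CYP17A1_copy3 starts later. With intron 3 added, chosen after seeing the data, the sums were 121, 460 and 339 bp, as given above. The share of names with neighbouring models on 1 strand was 41.8% within 1 Mb, 43.1% on either strand and 59.9% without single-exon models. The share of these with overlapping alignments was 17.7% where all models had several exons, an alternative chosen after seeing the data. No paired analysis was possible because the result comes from 1 annotation and no sample enters it, and for the same reason no replicate could be left out.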
